A study of Dorcoceras hygrometricum with 3 samples.

Results

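Dicer and argonaute proteins are the core of RNA silencing. Dicer enzymes cut double-stranded RNA into small RNAs, and argonaute proteins bind these small RNAs and use them to find matching transcripts, which are then cleaved or kept from translation. In plants a nuclear branch of the same pathway, RNA-directed DNA methylation, uses small RNAs to guide a DNA methyltransferase to matching DNA. DNA methylation is the mark that was measured here, but whether the genes described below work in this branch was not tested. The genes described are the 5 given by identifier, 3 described as endoribonuclease Dicer and 2 as argonaute in the deposited KEGG text, among 5575 genes listed in either comparison. A search of the same text for both names found 8 genes, and the further 3 are described after the 5.

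Leaf DNA of Boea hygrometrica, a resurrection plant that survives near-complete drying of its leaves, was measured by bisulfite sequencing in potted plants kept hydrated, or dried down to a relative water content (RWC) of 70% or of 10%. There was 1 library per condition, so no difference below has a replicate check, no test between conditions was possible, and condition, plant and library preparation cannot be told apart. The deposited tables compare the hydrated library with each dehydrated library and give, for a gene, 1 region with its mean methylation level in both libraries, as a fraction from 0 to 1 with 2 decimals. They list selected regions: the higher of the levels was never under 0.1, and the ratio of the levels was at least 1.92 at 70% RWC and 1.86 at 10% RWC. Every listed gene therefore differs between its libraries by selection, and the measurements of interest are direction, size and place. Read counts, coverage and sequence context (CG, CHG or CHH) are not given, so depth is unknown and levels carry no interval. RNA was not measured in these samples.

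All 5 genes were listed at 70% RWC and 4 of them at 10% RWC. Bhs18_073V1.1 was the one not listed at 10% RWC. Of all 5575 genes, 3177 were listed at 70% RWC, 3660 at 10% RWC and 1262 in both. The 3 further genes found by the text search were listed at 10% RWC only, so the counts of listed genes depend on the choice of the 5. Both argonaute genes had a higher level in the dehydrated leaf in both comparisons. Of the 3 Dicer genes, 1 had a higher and 2 a lower level at 70% RWC, and the 2 listed at 10% RWC both had a lower level. Together, 3 of 5 genes were higher at 70% RWC, where 70.6% of the 3177 listed genes were higher and 29.4% lower. At 10% RWC 2 of 4 were higher, where 55.8% of the 3660 listed genes were higher and 44.2% lower. By gene part, 71.3% of upstream and 71.0% of gene-body regions were higher at 70% RWC, and 50.1% and 61.5% at 10% RWC. With 5 and 4 genes, the members' counts lie near these shares. Among genes that differed by at least 0.2 at 10% RWC, the share with a higher level was 45.5%, and 2 members were higher and 0 lower. At 70% RWC that share was 71.7%, and 1 member was higher and 1 lower. The median size of the difference was 0.17 for the 5 genes and 0.22 for all listed genes at 70% RWC, and 0.19 for the 4 genes and 0.20 for all listed genes at 10% RWC.

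**Figure D1:**
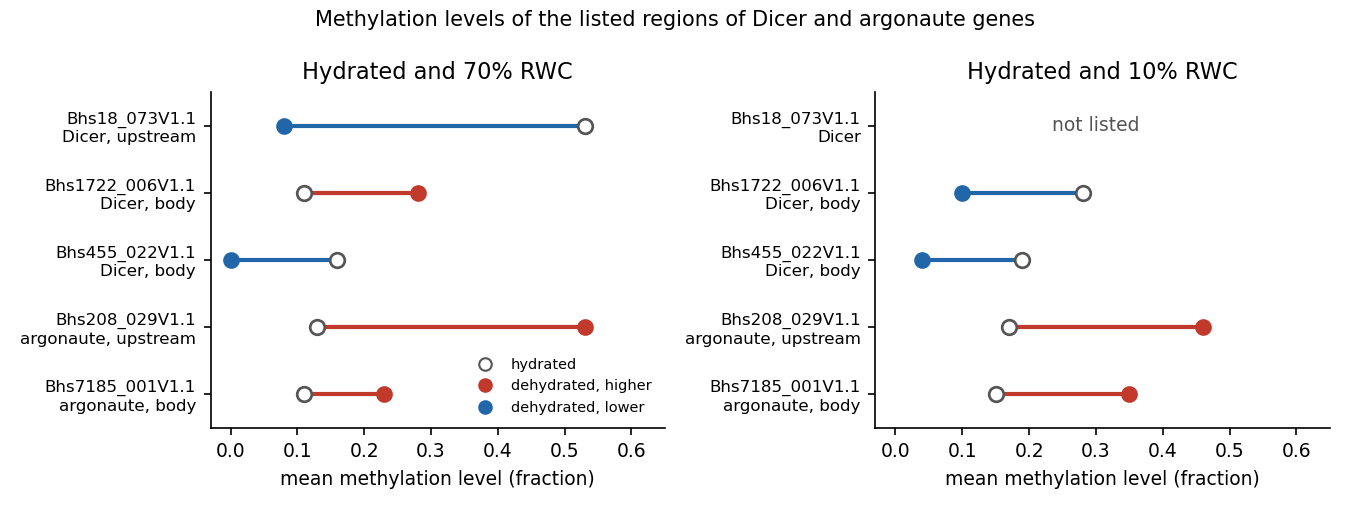
Mean methylation level (fraction) of the listed region of each Dicer and argonaute gene, with hydrated leaves as open circles and the dehydrated leaf as filled circles, red where higher and blue where lower. Each circle is 1 library, and regions of a gene in the left and right panels can be different stretches. The argonaute genes Bhs208_029V1.1 and Bhs7185_001V1.1 have the filled circle to the right of the open one in both panels, and Bhs18_073V1.1 was listed only on the left, from 0.53 to 0.08.

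The largest difference among the Dicer genes lay upstream of Bhs18_073V1.1. The region is 474 bp long (scaffold18, 641273 to 641746) and ends 1682 bp before the gene (643429 to 653654), which is far out for an upstream region, since 18.1% of the upstream regions at 70% RWC lay 1500 bp or more from their gene and the median gap was 869 bp. Hydrated leaves had a level of 0.53 there and leaves at 70% RWC one of 0.08, which is 6.62-fold lower, a difference of -0.45. By size this was in 53rd place among the 934 genes with a lower level at 70% RWC, and 6.0% of those genes differed as much or more. Ranked by log2 ratio, with 0.01 added to each level, it was in place 115. The hydrated level of 0.53 was also the highest of all levels recorded in hydrated leaves for the 5 genes, whose other hydrated levels ran from 0.11 to 0.28. No region of a listed gene lay within 2000 bp of Bhs18_073V1.1 at 10% RWC, so a level there in the desiccated leaf is not given. The same scaffold carried 25 listed regions at 70% RWC, 15 of them higher and 10 lower, and the nearest listed gene, Bhs18_077V1.1, a gene matched to interleukin-1 receptor-associated kinase 4 and 17843 bp away, also had a lower level, 0.45 and 0.20 in its body.

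Bhs1722_006V1.1, the longest of the 5 genes at 16350 bp, was listed for opposite directions at opposite ends of its body. Its Gene Ontology terms include the production of miRNAs and of siRNAs, embryo development and innate immune response. At 70% RWC the region (scaffold1722, 44415 to 44745) began 84 bp inside the end of the gene with the lower coordinates, and had a hydrated level of 0.11 and a level of 0.28 at 70% RWC. At 10% RWC the region (59936 to 60238) stopped 442 bp short of the other end, and had a hydrated level of 0.28 and a level of 0.10 at 10% RWC. The regions were separated by 15190 bp, so the hydrated level differed between them within 1 library, and neither table gives the level of the other's region. The tables do not state the strand, so which end is the start of transcription is not known for this gene. Of the gene-body regions in genes of 10000 bp or more, 20.6% at 70% RWC and 14.0% at 10% RWC lay within 500 bp of a gene end. The difference at 70% RWC was 0.17, and 72.4% of the genes with a higher level differed as much or more. At 10% RWC it was -0.18, and the share among genes with a lower level was 69.8%. Of the 1262 genes listed in both comparisons, 432 had separate regions, and for 151 of these both lay in the body. How many of these genes changed direction was not counted.

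The region that Bhs1722_006V1.1 carried at 10% RWC was also listed as downstream of its neighbour Bhs1722_007V1.1. This neighbour is a gene model of 582 bp that starts 56 bp after Bhs1722_006V1.1 ends, is likewise described as endoribonuclease Dicer, and has the same grape gene as its match in the KEGG text. Both entries are 1 measurement, with levels of 0.28 and 0.10, and count as 1 region.

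Bhs455_022V1.1, at 3770 bp the shortest of the 3 Dicer genes given by identifier, had a lower level at nearly the same stretch in both comparisons. The region at 70% RWC (scaffold455, 151151 to 151431) had a hydrated level of 0.16 and was listed at 0 at 70% RWC. The region at 10% RWC (151178 to 151381) lay inside it, covered 72.6% of it, and had levels of 0.19 and 0.04. Both began within 141 bp of the end of the gene with the lower coordinates (151037 to 154806). The level in both dehydrated leaves was near 0, although the difference, -0.16 and -0.15, was small beside those of other genes as a difference of levels: 71.0% and 80.9% of the genes with a lower level differed as much or more. By log2 ratio, with 0.01 added, it was among the larger ones, in place 23 of 934 at 70% RWC and 207 of 1619 at 10% RWC. A listed level of exactly 0 was found for 55 genes in the 70% RWC library, and how many reads stand behind it is unknown.

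Among the argonaute genes, Bhs208_029V1.1 had the largest difference. Its region covers the stretch just before the gene (scaffold208, 400243 to 405746) and began at position 400004 in both comparisons. At 70% RWC it ran to 400321, 79 bp into the gene, with a hydrated level of 0.13 and a level of 0.53 at 70% RWC. At 10% RWC it ran to 400236, leaving a gap of 6 bp before the gene, with levels of 0.17 and 0.46. The level was thus 4.08-fold and 2.71-fold that of the hydrated leaf. By difference of levels, 7.67% of the genes with a higher level at 70% RWC differed as much as its 0.40 or more, and at 10% RWC, with a difference of 0.29, the share was 18.5%. On this scale its places were 154 of 2243 and 346 of 2041, but by log2 ratio, with 0.01 added, they were 483 and 948. Few upstream regions lay so close to the gene: 8.53% at 70% RWC and 8.31% at 10% RWC had a gap of 10 bp or less. The stretch was listed in both comparisons as upstream of Bhs208_028V1.1 as well, a model of 222 bp without a description that ends 410 bp before Bhs208_029V1.1. A region upstream of both neighbours lies between genes that are read away from each other. Its levels cannot be assigned to the argonaute gene alone.

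Bhs7185_001V1.1, an argonaute gene whose terms include gene silencing by miRNA and the production of siRNA, had higher levels in neighbouring stretches of its body. At 70% RWC the region (scaffold7185, 17502 to 17703) had levels of 0.11 and 0.23. At 10% RWC the region (17216 to 17502) had levels of 0.15 and 0.35. The regions share 1 base, position 17502, and together span 488 bp in the part of the gene (15186 to 18572) with the higher coordinates, between 64.2% and 71.3% of its length by their midpoints. Such an overlap of 1 base was found for 12 of the 830 genes whose regions overlapped between the tables. The difference at 70% RWC, 0.12, was the smallest among the 5 genes, and 90.0% of the genes with a higher level differed as much or more. At 10% RWC the difference was 0.20, and the share was 42.8%, in place 790 of 2041 by difference and 1251 by log2 ratio.

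**Figure D2:**
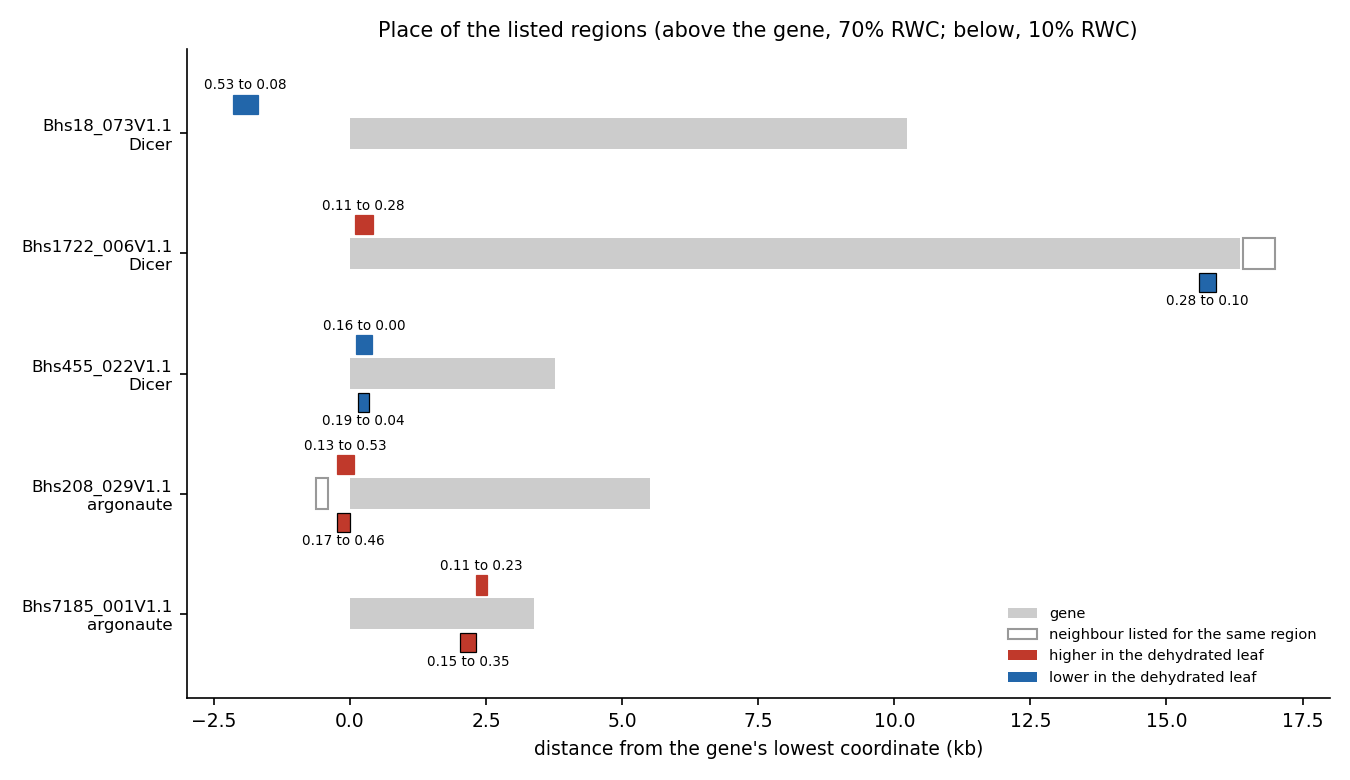
Place of each listed region along its gene, as distance from the gene's lowest coordinate in kb, with the 70% RWC region above and the 10% RWC region below the grey gene bar. Numbers give the hydrated and then the dehydrated level (fraction), red marks a higher and blue a lower level in the dehydrated leaf, and white boxes are neighbouring gene models listed for the same region. The regions of Bhs1722_006V1.1 lie 15190 bp apart at its 2 ends, those of Bhs455_022V1.1 and Bhs208_029V1.1 are nested, and those of Bhs7185_001V1.1 share 1 base.

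The hydrated leaf was the same library in both tables, so the comparisons are not independent and their directions are given side by side only. Where a region had identical boundaries in both tables, its hydrated level was the same in 113 of 114 cases and differed by 0.03 in the other. None of the 5 genes had identical regions. Their hydrated levels differed between the tables by 0.03 for Bhs455_022V1.1 and by 0.04 for Bhs208_029V1.1 and Bhs7185_001V1.1, where the median over 703 genes with overlapping but unequal regions was 0.04. In both nested pairs the shorter, inner stretch had the higher hydrated level. The levels of the 70% and 10% RWC leaves, 0.53 and 0.46 at Bhs208_029V1.1 and 0 and 0.04 at Bhs455_022V1.1, were thus read over unequal stretches and cannot be ordered. At Bhs208_029V1.1 the dehydrated leaves differed from the hydrated leaf by 0.40 and 0.29, and the hydrated level differed between the stretches by 0.04. How the dehydrated levels change with the stretch was not tested.

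The 5 genes shared few features beyond their description. At 70% RWC 3 of the regions lay in gene bodies and 2 upstream, at 10% RWC 3 and 1, and no region of these genes lay downstream. Of all 3177 genes listed at 70% RWC, 1407 had a region in the body and 844 upstream. Of the 3660 at 10% RWC, 1618 and 999 did. With so few members, the lack of a downstream region is not read as a feature of these genes. The regions were 202 to 474 bp long at 70% RWC and 204 to 303 bp at 10% RWC, where the medians of all listed genes were 340 and 337 bp. Except upstream of Bhs18_073V1.1, all hydrated levels were 0.28 or lower.

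The nearest other listed genes on the same scaffolds went both ways. At 70% RWC the second-nearest gene to Bhs18_073V1.1 was Bhs18_080V1.1, without a description, with levels of 0.23 and 0.49 downstream. At 10% RWC the nearest were Bhs18_077V1.1, this time with 0.17 and 0.37 downstream, and the receptor kinase homologue Bhs18_091V1.1, with 0.10 and 0.26 in its body. Next to Bhs208_029V1.1, 12762 bp away, Bhs208_031V1.1, an OTU domain homologue, had a lower level at 70% RWC (0.13 and 0.02) and a higher one at 10% RWC (0.08 and 0.26), at different stretches downstream, while the argonaute region was higher in both. On the scaffold of Bhs455_022V1.1 the nearest listed genes lay at least 56889 bp away and had higher levels, which were 0.09 and 0.25 at Bhs455_001V1.1 at 70% RWC, and at 10% RWC 0.12 and 0.25 at the ferredoxin reductase gene Bhs455_011V1.1 and 0.02 and 0.13 at Bhs455_010V1.1. Bhs1722_012V1.1, 49410 bp from Bhs1722_006V1.1, had 0.18 and 0.08 downstream at 10% RWC. Bhs7185_001V1.1 was the single gene listed on its scaffold in either comparison.

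**Figure D3:**
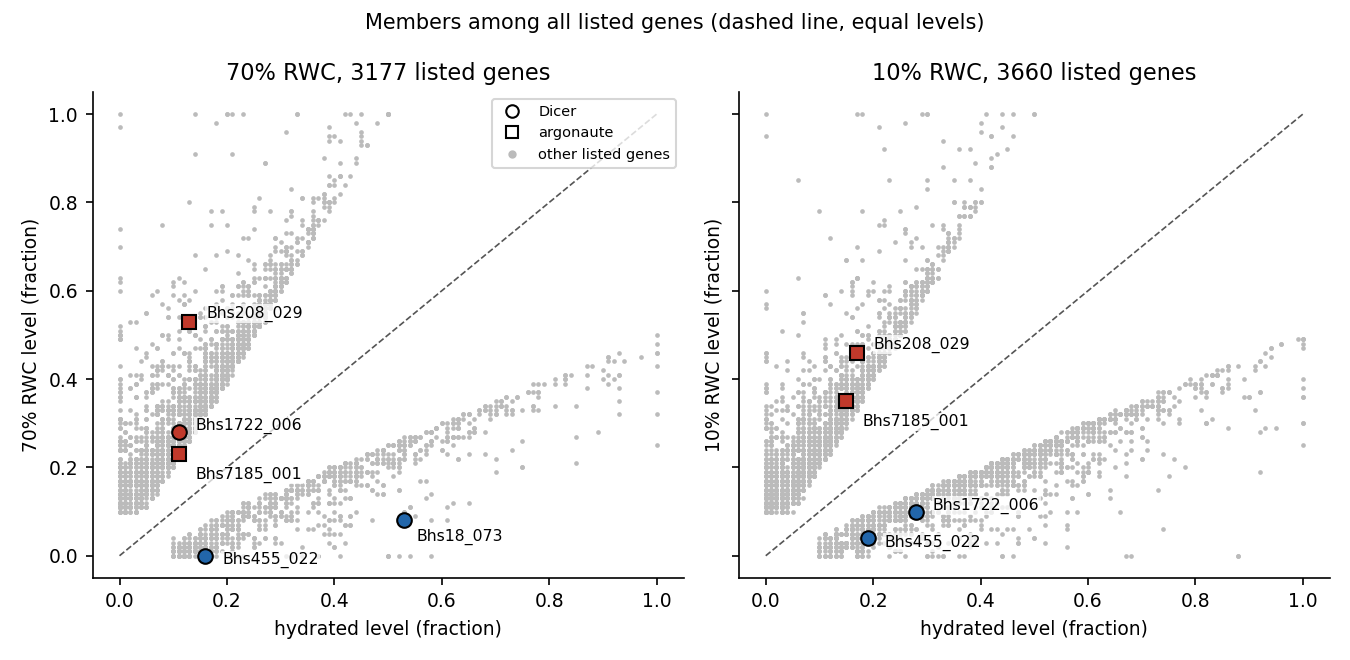
Level in the dehydrated leaf against level in the hydrated leaf (fractions) for all 3177 genes listed at 70% RWC and all 3660 at 10% RWC, 1 point per gene and 1 library per axis. Circles are the Dicer and squares the argonaute genes, red above and blue below the dashed line of equal levels, and the empty band around that line is the authors' selection. Bhs208_029V1.1 and Bhs18_073V1.1 stand away from the band at 70% RWC, while Bhs7185_001V1.1 lies close to it.

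A search of the KEGG text for Dicer or argonaute found no further gene at 70% RWC and 3 at 10% RWC. Besides Bhs1722_007V1.1, these were the argonaute genes Bhs5_092V1.1 and Bhs1483_003V1.1. The body of Bhs5_092V1.1, whose terms include posttranscriptional gene silencing and root development, had levels of 0.07 and 0.22 in a region of 430 bp near the middle of the gene (scaffold5, 587619 to 588048). Downstream of Bhs1483_003V1.1, whose terms include stem cell maintenance and leaf development and whose match is the Arabidopsis gene ZWILLE, the levels were 0.03 and 0.15 over 420 bp (scaffold1483, 94584 to 95003), of which 84 bp lay inside the gene. With these genes, all 4 argonaute genes listed at 10% RWC had a higher level and all 3 Dicer genes, which stand for 2 regions, a lower one, where 55.8% of all listed genes were higher and 44.2% lower. This split of the named families was seen after the values were known, rests on 6 regions of single libraries, and was not tested.

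Other listed genes matched terms of the pathway. A keyword list covering RNA-dependent RNA polymerases, DNA methyltransferases, RNA polymerases IV and V, small RNA methylation and gene silencing terms held 7 genes at 70% RWC and 8 at 10% RWC beside the 5. All 7 were higher at 70% RWC, as were 70.6% of all listed genes, with a median difference of 0.19 where that of all listed genes was 0.17. At 10% RWC 6 were higher and 2 lower, where 55.8% of all listed genes were higher and 44.2% lower, with a median difference of 0.18 against 0.10 for all listed genes. These 8 include Bhs5_092V1.1, higher, and Bhs1722_007V1.1, lower, which were already counted above with the Dicer and argonaute genes. The region of Bhs1722_007V1.1 is that of Bhs1722_006V1.1, so this lower entry is not a separate measurement from those of the 5. All 7 genes at 70% RWC and 6 of the 8 at 10% RWC entered by a Gene Ontology term and not by their description. No gene at 70% RWC matched the keywords for RNA-dependent RNA polymerases, RNA polymerases IV and V or small RNA methylation. Nor did any of the genes described below at 10% RWC.

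The gene of this list that bears most directly on DNA methylation was Bhs5472_001V1.1, a DNA (cytosine-5-)-methyltransferase, the class of enzyme that writes the mark. A region of 525 bp in its body (scaffold5472, 23905 to 24429) had a hydrated level of 0.03 and a level of 0.24 at 10% RWC. It was not listed at 70% RWC. Bhs2396_004V1.1, described as a ribonuclease III family protein, the enzyme family to which Dicer belongs, had the largest difference of the list among genes with a lower level, 0.53 and 0.23 in its body at 10% RWC. Of the genes with lower levels, the other one was Bhs1722_007V1.1.

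The remaining genes of the list had higher levels in the dehydrated leaf, and 2 of them at 10% RWC are counted but not described. The largest difference was in the body of Bhs862_041V1.1, a subunit of the cleavage and polyadenylation specificity factor that forms the ends of mRNAs, with levels of 0.19 and 0.78 at 70% RWC. The RNA helicase genes Bhs40_019V1.1 and Bhs45_018V1.1 had body levels of 0.20 and 0.50, and of 0.16 and 0.44, at 70% RWC. Bhs700_036V1.1, a subunit of the THO complex that couples transcription to mRNA export, had 0.04 and 0.13. Bhs119_084V1.1, without a description, had 0.07 and 0.26, Bhs4140_007V1.1, weakly matched to ubiquitin ligases, 0.02 and 0.19, and Bhs198_019V1.1, a chromatin helicase homologue, 0.02 and 0.16 downstream. At 10% RWC the body of Bhs1834_022V1.1, an exoribonuclease that degrades RNA from its 5′ end, had 0.36 and 0.72, and upstream of Bhs427_012V1.1, matched to the largest subunit of RNA polymerase II, the levels were 0.20 and 0.42.

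**Figure D4:**
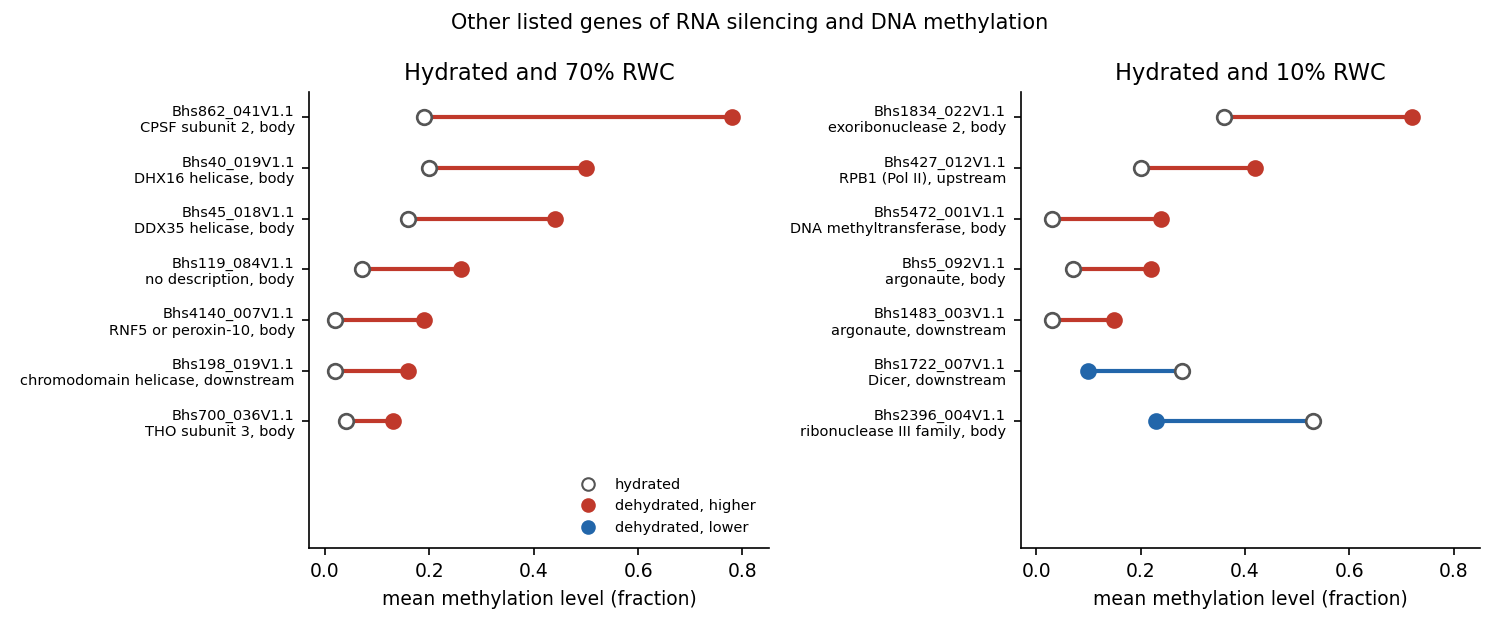
Mean methylation level (fraction) of the listed regions of the described other genes matched by the keyword list, and of the 3 further genes described as Dicer or argonaute. Open circles are the hydrated and filled circles the dehydrated leaf, 1 library each, red where higher and blue where lower. All genes on the left, and most on the right, matched by a Gene Ontology term and not by their description. All genes on the left lie higher at 70% RWC, and on the right only Bhs1722_007V1.1 and Bhs2396_004V1.1 lie lower at 10% RWC.

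The pairs of levels at the 5 genes were matched to varying degrees by other described genes with a region in the same gene part, where likeness was the larger of the gaps in the hydrated and dehydrated level. Upstream of Bhs18_073V1.1 no other of 375 genes came within 0.01, and the nearest was the NADH dehydrogenase gene Bhs45_052V1.1 with 0.54 and 0.11, followed by Bhs263_021V1.1, a phytochrome-interacting factor homologue, with 0.58 and 0.14. For Bhs208_029V1.1 at 70% RWC no other of the 375 genes came within 0.01 either. The nearest were Bhs152_054V1.1, weakly matched to a kinesin, with 0.14 and 0.50, and Bhs422_014V1.1, a nucleotide-sugar dehydratase, with 0.16 and 0.54. At 10% RWC they were the iron transporter homologue Bhs2491_017V1.1, with 0.18 and 0.47, and Bhs834_020V1.1, a methyltransferase, with 0.16 and 0.44. There 1 of 426 genes came within 0.01. The nearest to Bhs455_022V1.1 at 70% RWC were the kinase homologue Bhs2524_004V1.1, with 0.17 and 0.01, and the pantothenate kinase gene Bhs518_013V1.1, with 0.14 and 0.02. At 10% RWC they were Bhs190_033V1.1, an rRNA methyltransferase, with 0.18 and 0.05, and Bhs734_001V1.1, a disease resistance homologue, with 0.20 and 0.03. For Bhs455_022V1.1, 1 of 819 genes at 70% RWC and 5 of 942 at 10% RWC came within 0.01.

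Equal levels to those of Bhs1722_006V1.1 were listed for the proton ATPase gene Bhs13353_001V1.1 and the folylpolyglutamate synthase gene Bhs2272_007V1.1 at 70% RWC, and for the succinate dehydrogenase gene Bhs5648_002V1.1 and the calmodulin gene Bhs3343_003V1.1 at 10% RWC, with 14 of 819 and 10 of 942 genes within 0.01. Bhs7185_001V1.1 had 8 and 16 such genes, the nearest being the splicing factor gene Bhs15615_001V1.1 and the peptide transporter gene Bhs342_034V1.1, both with 0.10 and 0.22 at 70% RWC, and at 10% RWC, with levels equal to its own, the RNA polymerase I and III subunit gene Bhs700_023V1.1 and the ascorbate oxidase gene Bhs107_100V1.1. Each likeness rests on 2 levels.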

How the data were processed

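Bisulfite libraries of leaf DNA were made from sonicated DNA with methylated adaptors, per the labels' protocols. The sources used here name no aligner, region caller or build. Levels are fractions that the authors deposited as the mean of a region in 1 library. Gene positions, region lengths and functional text are also the authors', and the deposited direction matched the sign of the difference for every gene. Lines without a gene identifier (57411 at 70% RWC and 54694 at 10% RWC) were left out. Each gene's end was computed from its start and length. A region shared by neighbouring genes counts for each of them unless stated.

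Differences are dehydrated minus hydrated level, and ratios were taken only where both levels were above 0. No test was made, because each condition has 1 library. The members and gene lists were chosen with earlier results of these data known. Named genes are the 5 genes, the pathway list, the nearest 2 patterns in each table, genes that share a member's region and the nearest 2 listed genes on its scaffold. Of the pathway list, 2 genes are not reported here by name. Functions were tested on simulated data. Python 3.11.15, pandas 2.3.3, numpy 2.4.6 and scipy 1.17.1 were used. No sequences are shown, because no genome was used here.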

Additional observations from a re-analysis of the deposited data

Results flagged for a closer look

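The Dicer gene Bhs1722_006V1.1 was listed with opposite directions in the comparisons, a difference of 0.17 at 70% RWC and of -0.18 at 10% RWC. The regions are different stretches of the gene, and the difference between the comparisons was not tested, since each rests on 1 library. Separate regions were listed for 432 of the 1262 genes in both comparisons, and how many of those changed direction was not counted.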

How the results depend on the processing

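On a log2 scale, with 0.01 or 0.05 added to each level, the direction at each of the 5 genes was the same in all 18 cases. The same constant was added to both levels, so the sign could not change and the count is no check of direction. Few counts held under a minimum difference. With a minimum of 0.2, 1 gene was higher and 1 lower at 70% RWC, where 71.7% of all listed genes passing it were higher. At 10% RWC 2 were higher and 0 lower, where that share was 45.5%, down from 55.8% without a minimum. With 0.3 these counts were 1 and 1 at 70% RWC and 0 and 0 at 10% RWC, and the share of all listed genes is not given. Drawing genes from the KEGG text gave 7 in place of 4 at 10% RWC. Of the pathway list, description alone left 0 higher genes at 70% RWC and 1 higher and 1 lower at 10% RWC, and a minimum of 0.2 left 3 higher at 70% RWC and 4 higher and 1 lower at 10% RWC. The shares of all listed genes beside these pathway counts with a minimum of 0.2 are the same 71.7% at 70% RWC and 45.5% at 10% RWC. Ranked within their direction by log2 ratio with 0.01 added, Bhs18_073V1.1 moved from place 53 to 115, Bhs208_029V1.1 from 154 to 483 and Bhs455_022V1.1 from 630 to 23 at 70% RWC. At 10% RWC Bhs1722_006V1.1 moved from 1084 to 519, Bhs208_029V1.1 from 346 to 948, Bhs455_022V1.1 from 1262 to 207 and Bhs7185_001V1.1 from 790 to 1251. A ratio weights low levels, and the place of Bhs455_022V1.1 at 70% RWC depends on the constant added to a level of 0. No paired analysis was possible because each condition has 1 library. Depth is unknown, so small differences cannot be told from counting error.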
